A study of Danio rerio with 12 samples.

Results

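The genes described here encode the enzyme complexes of the mitochondrial respiratory chain and ATP synthase. They were found by their annotated symbols, which begin with nduf (complex I), sdh (complex II), uqcr (complex III), cox4 to cox8 (complex IV) or atp5 (complex V), together with COX1. The array carried 95 such probe sets for 86 genes, out of 8793 genes with 1 annotated symbol. Complex I accounted for 39 of the genes, complex II for 7, complex III for 7, complex IV for 15 and complex V for 18. The symbols also cover assembly factors (ndufaf and sdhaf genes) and inhibitors of ATP synthase (atp5if1 genes). These are included in the counts and medians of their complex below, and are also described apart from the subunits.

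The fish were wild type adult male zebrafish, and their whole eyes were profiled on Affymetrix arrays 4, 12 and 21 days after injury of the optic nerve, to follow expression in the eye over time. In the ONX group the left eye was lifted and its optic nerve was crushed with forceps; in the SHAM group the right eye of those animals was lifted and put back with its nerve intact. Each of the 6 groups (ONX and SHAM at each day) had 2 pools of 5 eyes and each pool was run on 1 array, so that 12 arrays were compared and their number limits the precision. The eyes were taken whole, with lens and anterior segment, so a lower signal from fewer cells of a type cannot be told apart from a lower signal from less RNA per cell.

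The respiratory chain sits in the inner mitochondrial membrane. Complex I oxidises NADH and complex II oxidises succinate, complex III passes the electrons to cytochrome c, complex IV reduces oxygen to water, and complex V uses the resulting proton gradient to make ATP. Most subunits are encoded in the nucleus, whereas COX1, a catalytic subunit of complex IV, is encoded by the mitochondrial genome. Photoreceptors of the retina are densely packed with mitochondria and are among the largest consumers of ATP in the eye.

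Several features of the arrays bear on every result below. Array labels were set against gap43, a growth cone protein of regrowing axons, and atf3, a stress-induced transcription factor of injured neurons, both picked after their values were seen. At day 4 gap43 read 7.65 and 7.73 in the SHAM pools and 12.09 and 12.22 in the ONX pools (log2 signal), and the groups did not overlap. At day 12 it read 12.68 on the array labelled SHAM pool 1 and 7.85 on SHAM pool 2, against 7.95 on the array labelled ONX pool 1 and 12.32 on ONX pool 2, so that both pool 1 arrays went against their labels. At day 21 it read 10.15 and 9.18 in the arrays labelled SHAM and 7.93 and 9.38 in those labelled ONX, with overlap. For atf3 the day 12 arrays labelled SHAM read 11.91 and 7.63 and those labelled ONX 8.51 and 11.29, which is the same order as gap43. The labels were used as deposited, and values or counts without the pool 1 arrays of days 12 and 21 are given with most comparisons. Next, ONX day 4 pool 1 stood apart: its Spearman correlation with the other 11 arrays was 0.717 to 0.810, against 0.851 to 0.973 among those 11. For all 17 oocyte marker genes on the array at least 1 probe set was highest there, and the summed oocyte signal was 180679 on this array against 23624 to 41462 on the others, although the labels give male fish. Last, the control probe sets that Affymetrix adds at hybridisation read lower on both ONX day 4 arrays than on the SHAM arrays of that day, by -0.55 and -0.40 (log2), and the poly-A control probe sets read -0.88 and 0.15 against them.

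At day 4 the respiratory chain genes as a group read lower in the ONX eyes, with a median ONX minus SHAM difference of -0.41 (log2 signal, 84 tested genes), against -0.09 over all 9301 tested probe sets. This sign depended on the scaling of the arrays: the median was 0.06 with arrays scaled to the hybridisation controls and -0.04 with arrays scaled to the poly-A controls, while the median of all probe sets moved to 0.38 and 0.28. Control scaling shifts every probe set of an array alike. The distance of the members from the median of all probe sets (-0.32) is thus the same by construction. After quantile normalization that distance was -0.21. The members were also brighter than the array, with a median log2 signal of 11.50 against 8.90 on SHAM day 4 pool 1. With only the brightest 40% of probe sets kept, the median of all probe sets was -0.16 and the distance of the members -0.25. The members read lower on both ONX arrays, with a median of -0.49 in ONX pool 1 and one of -0.30 in ONX pool 2. All tested probe sets had -0.22 and -0.04 there. With signals as deposited, the middle 50% of the genes lay between -0.54 and -0.24. A difference below zero was found for 75 of 84 genes, and for 5143 of all 9301 tested probe sets.

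Both ONX pools were below both SHAM pools for 65 of 84 genes (77.4%), where 36.1% of all tested probe sets showed this. The reverse order was found for 3 genes (3.57%) and for 24.1% of all probe sets. In contrast to these shares, few single genes passed the test. The limma fit over all 9301 probe sets, with Benjamini-Hochberg adjustment at 0.05, called 7 of 90 member probe sets lower (7.78%) and none higher, while it called 11.7% of all tested probe sets lower and 5.29% higher. The share of members called lower was thus below that of the array as a whole. At an unadjusted p under 0.05 in either direction the members numbered 39 of 90 (43.3%), against 36.9% of all probe sets. Of those members 38 were lower and 1 was higher. Of all 9301 probe sets 2165 were lower and 1267 higher at that p. In the plot by complex only ndufs1 exceeded a difference of 1 log2 unit. The calls rested on single arrays, and this held for all tested probe sets as well as for members. Without ONX pool 1 of day 4, or without either SHAM pool of that day, the calls were lost among both. The median of the members was then -0.30 without ONX pool 1, -0.38 without SHAM pool 1 and -0.42 without SHAM pool 2. Without ONX pool 2 of day 4, 39 were called lower (43.3%, against 28.1% of all probe sets) and 2 higher, and without either ONX pool of day 21 4 were called lower (4.44%, against 7.28% or 7.30%). A group left with 1 array takes its spread from the remaining groups in these fits. Without the pool 1 arrays of day 12 the count was 11 (12.2%, against 12.8%), and without those of days 12 and 21 it was 0 (13 at an unadjusted p under 0.05, and 1 of all probe sets lower). The last of these fits keeps 1 array in each group of days 12 and 21, so its spread comes from the day 4 arrays alone. It is in effect the same as a fit to the day 4 arrays alone and is no check of the labels. Estimated array weights, that fit to the day 4 arrays alone, or a block for the pool number within a day also ended all 7 calls. At an unadjusted p under 0.05 these fits had 15, 13 and 26 members. Of all 9301 probe sets they called 0, 10 and 0. The SHAM eyes came from the same animals as the ONX eyes, but the labels do not say whether pools of one number hold the same fish.

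**Figure D1:**
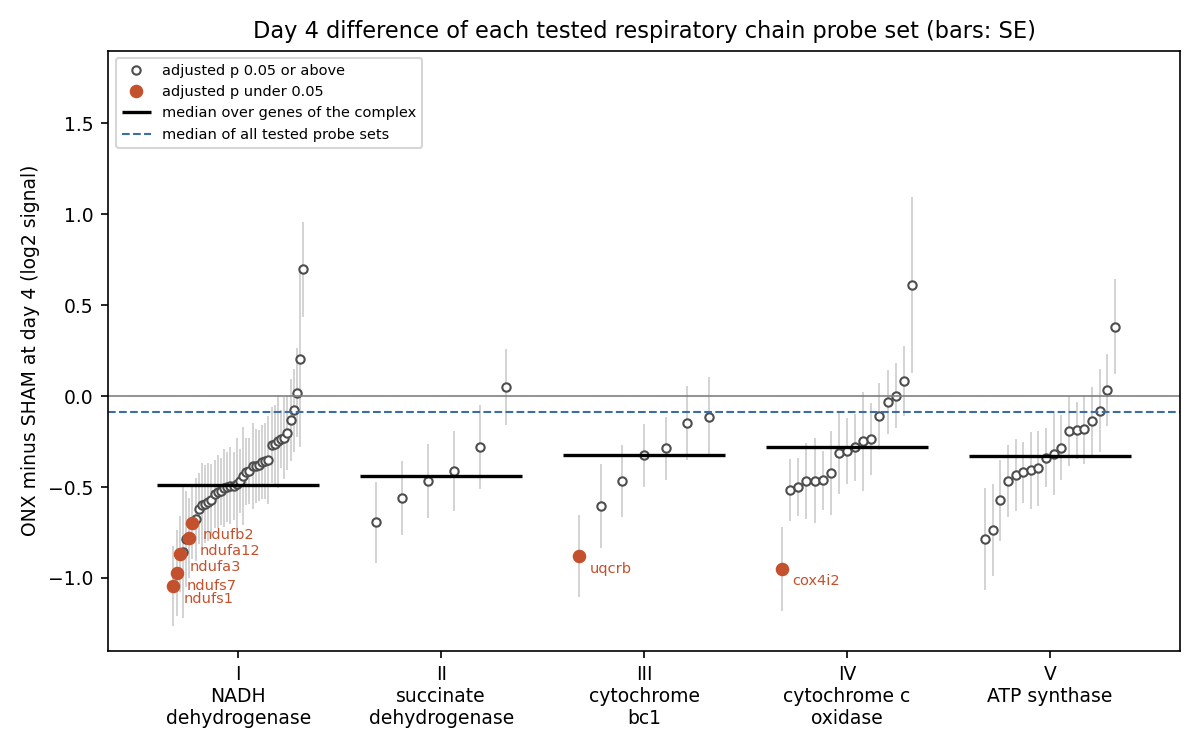
Day 4 ONX minus SHAM difference (log2 signal, y axis) of each tested member probe set, grouped by complex on the x axis; points are fitted differences, grey bars their SE, filled points the 7 with an adjusted p under 0.05, black lines the median of each complex and the dashed line the median of all tested probe sets (-0.09). The medians of complexes I to V lie between -0.49 and -0.28 as deposited, whereas scaling the arrays to the hybridisation controls puts them between -0.02 and 0.19.

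Complex I, the NADH dehydrogenase and entry point of electrons from NADH, had 5 called genes among 38 tested (13.2%, against 11.7% of all probe sets called lower). The median of complex I at day 4 was -0.49 (-0.61 and -0.36 by ONX pool). Both ONX pools were below both SHAM pools for 32 of the 38 genes (84.2%, against 36.1% of all tested probe sets). The 5 tested core genes, whose products carry the flavin and iron-sulfur centres, had a median of -0.79 and included 2 of the called genes.

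The gene ndufs1 encodes the largest iron-sulfur subunit of the complex. It read 12.51 and 12.29 in the SHAM pools of day 4 and 11.36 and 11.35 in the ONX pools. At day 12 it read 12.12 and 12.70 on the arrays labelled SHAM and 12.47 and 12.15 on those labelled ONX, and at day 21 12.48 and 12.33 against 12.55 and 12.39. Only the ONX arrays of day 4 were below 12. The day 4 difference was -1.04 ± 0.22 (SE, n = 2 pools per group, limma adjusted p = 0.0190), which is 2.06-fold lower. At the later days it was -0.10 and 0.07 with the labels as deposited. At day 12 the arrays with high gap43 (labelled SHAM pool 1 and ONX pool 2) read 12.12 and 12.15. Those with low gap43 read 12.70 and 12.47.

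A second core subunit, ndufs7, carries the last iron-sulfur cluster before ubiquinone. Its SHAM pools of day 4 read 12.81 and 12.77 and its ONX pools 11.80 and 11.83. On day 12 the values were 12.30 and 12.91 for SHAM and 12.79 and 12.28 for ONX, and on day 21 12.55 and 12.70 for SHAM and 12.88 and 12.67 for ONX. The ONX pools of day 4 were the lowest of the 12 arrays, and at day 12 the low arrays were those with high gap43. The fall at day 4 was -0.97 ± 0.24 (adjusted p = 0.0257), or 1.96-fold. The remaining core genes were ndufv1, the NADH-binding flavoprotein subunit, at -0.62 ± 0.20 (adjusted p = 0.0548), ndufv2 at -0.79 ± 0.26 and -0.52 ± 0.18 for its 2 probe sets, and ndufs8a at -0.48 ± 0.25. None of these 3 passed the test, although both ONX pools lay below both SHAM pools in each.

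The accessory subunits surround the core and are needed for its assembly and stability. Of their 28 genes 3 were called (10.7%, against 11.7% of all probe sets called lower), and the median was -0.49. For ndufa3, a small membrane-arm subunit, the day 4 arrays read 11.40 and 11.34 in SHAM and 10.32 and 10.69 in ONX. The other 8 arrays read 11.11 to 11.60, and the groups of day 4 did not overlap. The difference was -0.87 ± 0.21 (adjusted p = 0.0250).

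For ndufa12, a subunit that sits beside the core near the iron-sulfur chain, SHAM read 11.44 and 11.49 and ONX 10.54 and 10.83 at day 4. At day 12 the arrays labelled SHAM read 11.04 and 11.65 and those labelled ONX 11.38 and 11.38. At day 21 they read 11.29 and 11.45, and 11.57 and 11.38. The lowest later array was the one labelled SHAM day 12 pool 1. The day 4 difference of ndufa12 was -0.78 ± 0.22 (adjusted p = 0.0374). In ndufb2, a membrane-arm subunit, SHAM read 11.60 and 11.65 and ONX 10.70 and 11.17, with -0.70 ± 0.20 (adjusted p = 0.0391). Here pool 1 was further down than pool 2, and the other 8 arrays lay between 11.34 and 11.66.

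Genes of complex I that did not pass ranged from -0.85 ± 0.36 for ndufa4b to 0.70 ± 0.26 for ndufaf2. The ndufa4 product was first described in complex I and in mammals is now assigned to complex IV. Its zebrafish copies read differently: ndufa4a had -0.36 ± 0.20, and ndufa4b read 8.41 and 8.47 in SHAM against 6.98 and 8.19 in ONX. In ndufa4b ONX pool 1 lay much further below SHAM than pool 2. The acyl carrier protein genes moved little: the 3 probe sets of ndufab1a gave -0.13 to 0.02 and ndufab1b gave -0.27 ± 0.22.

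The assembly factors of complex I, which build the enzyme but are not part of it, had a median of -0.25 over 5 tested genes, and none was called. In ndufaf2, a chaperone of late assembly, SHAM read 7.60 and 7.18 and ONX 8.41 and 7.76 at day 4, so that both ONX pools were above both SHAM pools. Its difference of 0.70 ± 0.26 did not pass (adjusted p = 0.0869), and on the other 8 arrays it read 7.52 to 8.08. The factor ndufaf4 read 7.39 and 7.37 in SHAM and 8.50 and 6.67 in ONX, where the ONX pools lay on opposite sides of SHAM. The 2 probe sets of ndufaf1 gave -0.38 ± 0.20 and -0.35 ± 0.24.

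Complex II, the succinate dehydrogenase shared by the Krebs cycle and the respiratory chain, had a median of -0.44 at day 4 over 6 tested genes (-0.45 and -0.39 by pool), and none was called. At an unadjusted p under 0.05 there were 3, all lower, where 2165 of all 9301 probe sets were lower at that p. The 3 genes were the flavoprotein subunit sdha, the iron-sulfur subunit sdhb and the membrane anchor sdhc. In sdha, SHAM read 11.73 and 11.67 at day 4 and ONX 10.83 and 11.18. Later, the arrays labelled SHAM read 11.37, 11.49, 11.54 and 11.54 and those labelled ONX 11.68, 11.09, 11.75 and 11.45 (day 12 before day 21). The 3 lowest arrays were both ONX arrays of day 4 and the one labelled ONX day 12 pool 2. The day 4 difference of sdha was -0.69 ± 0.22 (adjusted p = 0.0571), that of sdhb -0.56 ± 0.20 (adjusted p = 0.0785) and that of sdhc -0.47 ± 0.20 (adjusted p = 0.124). The other anchor gene on the array, sdhdb, had 0.05 ± 0.21, with ONX pools at 10.03 and 9.53 on either side of the SHAM pools at 9.75 and 9.72. The assembly factors sdhaf4 and sdhaf2 gave -0.41 and -0.28.

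Complex III, the cytochrome bc1 complex, had a median of -0.32 over its 7 genes (-0.42 and -0.28 by pool). It had 1 called gene (14.3%, against 11.7% of all probe sets called lower). This was uqcrb, a small subunit at the ubiquinone-binding side. It read 12.23 and 12.15 in the SHAM pools of day 4 and 11.18 and 11.44 in the ONX pools. At day 12 the arrays labelled SHAM read 11.81 and 12.45 and those labelled ONX 12.20 and 12.13, and at day 21 12.00 and 12.30 against 12.21 and 12.04. The day 4 ONX arrays were the lowest of the 12. The difference was -0.88 ± 0.23 (adjusted p = 0.0296), a 1.84-fold fall. The other small subunits, uqcrq (-0.61 ± 0.23) and uqcrh (-0.47 ± 0.20), did not pass. Nearest to zero was uqcrfs1, the Rieske iron-sulfur protein, at -0.12 ± 0.22. The core protein genes uqcrc1, uqcrc2a and uqcrc2b had -0.29, -0.15 and -0.32.

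Complex IV, the cytochrome c oxidase, had a median of -0.28 over 15 genes, with -0.47 in ONX pool 1 and -0.12 in pool 2. It had 1 called gene (6.67%, against 11.7% of all probe sets called lower). The called gene was cox4i2, which in mammals is the isoform of the regulatory subunit 4 linked with low oxygen. It read 12.14 and 12.07 in SHAM and 10.92 and 11.39 in ONX at day 4. At day 12 the arrays labelled SHAM read 12.03 and 12.23 and those labelled ONX 12.31 and 11.72, and at day 21 all 4 arrays lay between 11.92 and 12.05. The lowest array after day 4 was thus the one labelled ONX day 12 pool 2, one of the pair with high gap43. The day 4 difference was -0.95 ± 0.23 (adjusted p = 0.0257), or 1.93-fold lower. The gene annotated as cox4i1l, which carries the name of the other isoform, had -0.25 ± 0.27.

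COX1 was measured by 3 probe sets. The brightest read 15.89 and 15.93 in SHAM and 15.39 and 15.51 in ONX at day 4. At day 12 it read 15.65 and 15.86 on the arrays labelled SHAM and 15.94 and 15.64 on those labelled ONX, and at day 21 15.85 and 15.92 against 15.81 and 15.93. Both ONX arrays of day 4 were the lowest of the 12. The 3 probe sets gave -0.46 ± 0.16, -0.50 ± 0.16 and -0.52 ± 0.17, with adjusted p of 0.0694, 0.0537 and 0.0589, so that the mitochondrially encoded gene did not pass on any of them. The nuclear genes of complex IV had a median of -0.27. Both ONX pools were below both SHAM pools in 8 of 14 (57.1%, against 36.1% of all tested probe sets).

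Several nuclear subunits of complex IV were near zero at day 4: cox5aa (-0.03 ± 0.18), cox7a2l (0.00 ± 0.18), cox6a1 (-0.11 ± 0.18) and cox5ba (0.09 ± 0.19). Their closest relatives read lower, cox5ab at -0.42 ± 0.23 and cox7a2a at -0.47 ± 0.21, but the difference between paralogs was not tested. The product of cox7a2l acts in mammals in joining complexes III and IV into supercomplexes. The most uneven member was cox6b1, one of a pair of genes for the subunit that faces the intermembrane space. It read 8.94 and 8.78 in SHAM and 8.94 and 9.99 in ONX at day 4, 9.86 and 8.47 in SHAM and 8.97 and 9.89 in ONX at day 12, and 8.97 and 8.77 in SHAM and 8.62 and 9.21 in ONX at day 21. Its 3 highest arrays were ONX day 4 pool 2, the one labelled SHAM day 12 pool 1 and ONX day 12 pool 2, of which the last 2 are the day 12 arrays with high gap43. The day 4 difference of 0.61 ± 0.49 did not pass (adjusted p = 0.380), and that of its partner cox6b2 was -0.28 ± 0.18.

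Complex V, the ATP synthase, had a median of -0.33 over 18 genes (-0.41 and -0.20 by pool), and none was called. At an unadjusted p under 0.05 there were 5 genes, all lower, where 2165 of all 9301 probe sets were lower at that p. The largest differences were those of atp5mea and atp5meb, paired copies for the small e subunit of the membrane part. For atp5meb SHAM read 12.07 and 12.22 and ONX 11.13 and 11.69 at day 4. For atp5mea SHAM read 11.69 and 12.15 and ONX 10.78 and 11.49. In both genes pool 1 was the lower of the ONX pools, and no ONX array reached a SHAM array. The differences were -0.73 ± 0.25 (adjusted p = 0.0677) and -0.79 ± 0.28 (adjusted p = 0.0758). The catalytic beta subunit gene atp5f1b had -0.34 ± 0.16. The genes of the rotor ring were near zero, with atp5mc1 at 0.03 ± 0.20, atp5mc3a at -0.08 ± 0.23 and atp5mc3b at -0.19 ± 0.16.

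The inhibitor genes, whose product blocks ATP hydrolysis by the synthase when the proton gradient fails, lay on opposite sides of zero. For atp5if1a the day 4 pools read 9.38 and 9.43 in SHAM and 10.06 and 9.51 in ONX, and for atp5if1b 10.15 and 10.17 in SHAM and 9.52 and 9.93 in ONX. Neither pair of groups overlapped. The differences were 0.38 ± 0.26 (adjusted p = 0.303) and -0.43 ± 0.20 (adjusted p = 0.136), and neither passed.

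**Figure D2:**
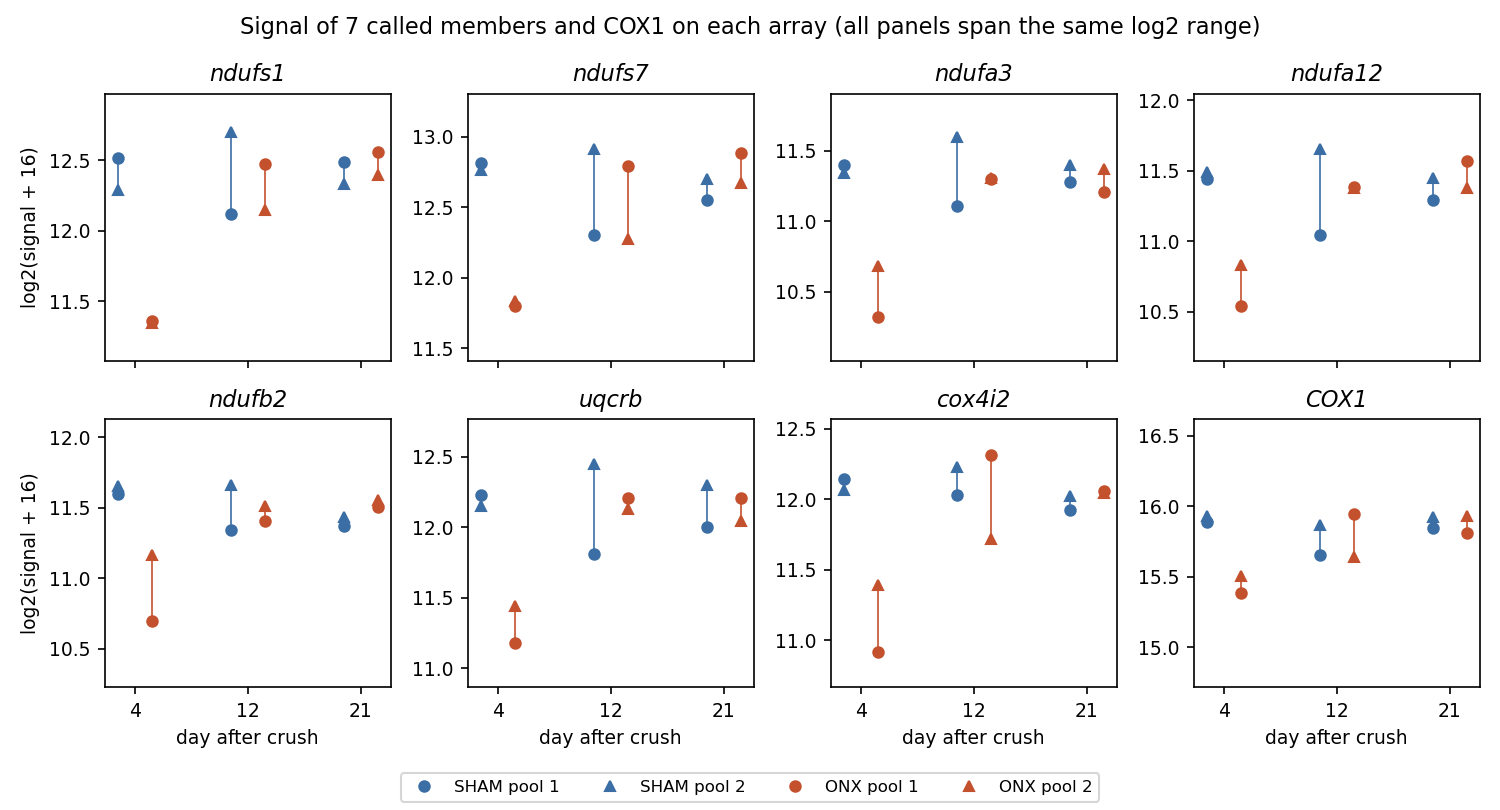
Log2(signal + 16) on the y axis against the day after crush on the x axis for the 7 called genes and the brightest COX1 probe set; circles are pool 1, triangles pool 2, and lines join the pools of a group. All panels span the same log2 range; at day 4 the ONX pools lie below the SHAM pools in every panel (ndufs1 at 11.36 and 11.35 against 12.51 and 12.29), and at day 12 the pools of one label lie further apart than at day 4 in ndufs1 and ndufs7.

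Between complexes, the day 4 medians ran from -0.49 in complex I through -0.44 in II, -0.33 in V and -0.32 in III to -0.28 in IV. Each step between neighbours was smaller than the gap between the ONX pools of complex I, III, IV or V. The ONX pools of complex II lay closer together (-0.45 and -0.39) than the step from II to V. The order is a description of these arrays and was not tested. Assembly factors and inhibitors count in these medians. The 4 subunit genes of complex II alone had -0.51 (-0.64 and -0.39 by pool), below the -0.49 of complex I as a whole. The core and accessory genes of complex I had -0.79 and -0.49. Scaled to the hybridisation controls, the medians were -0.02 in complex I, 0.03 in II, 0.15 in III, 0.19 in IV and 0.14 in V, a shift by 1 constant that leaves their order as it was by construction. Subunits without assembly factors and inhibitors had a median of -0.42 (75 genes) and assembly factors of complexes I and II -0.28 (7 genes).

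At day 12 no member was called and none had an unadjusted p under 0.05 in the limma fit. Of all 9301 probe sets 0.0% were called and 27 had an unadjusted p under 0.05. The member differences lay between -0.23 and 0.26, with a median of 0.02 over genes, and 87 of 90 probe sets were within 0.2 of zero, where the median SE was 0.21. Both ONX pools were below both SHAM pools for 2 genes, ndufaf5 and ndufs8a, and above for 2, ndufaf1 and ndufaf2, each 2.38% of the genes, where all tested probe sets gave 7.48% and 7.29%.

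The day 12 arrays of one label differed more than the labels did. The array labelled SHAM pool 2 read higher than SHAM pool 1 in 80 of 84 genes, by a median of 0.37, while all tested probe sets had a median of -0.0009. The array labelled SHAM pool 1 was thus low for the respiratory chain, and it was the array with high gap43. In the other high gap43 array, ONX pool 2, the median member was 0.09 above the SHAM mean, which includes that low array. Without the pool 1 arrays of day 12, a single ONX array against a single SHAM array, the median difference was -0.09 over all members, and it was -0.17 in complex I, -0.32 in II, -0.03 in III, 0.00 in IV and -0.06 in V. That fit has 1 array per group at day 12, so its counts of genes are not given.

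At day 21 no member was called, none had an unadjusted p under 0.05, and 0.0% of all probe sets were called (12 with an unadjusted p under 0.05). The differences lay between -0.27 (ndufaf5) and 0.17 (atp5mc3a), with a median of 0.04. Both ONX pools were above both SHAM pools for 22 of 84 genes (26.2%), where all probe sets gave 12.1%. Both were below for 3 genes (3.57%), where all probe sets gave 11.6%. The 22 genes included cox4i2 (11.92 and 12.02 in SHAM, 12.05 and 12.04 in ONX) and ndufb2 (11.37 and 11.44 against 11.51 and 11.56), both among those called lower at day 4. These gaps were smaller than the SE of the fit, and without the pool 1 arrays of days 12 and 21 the median was 0.00, 40 of 84 genes were below zero and 0 members were called (0 at an unadjusted p under 0.05).

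**Figure D3:**
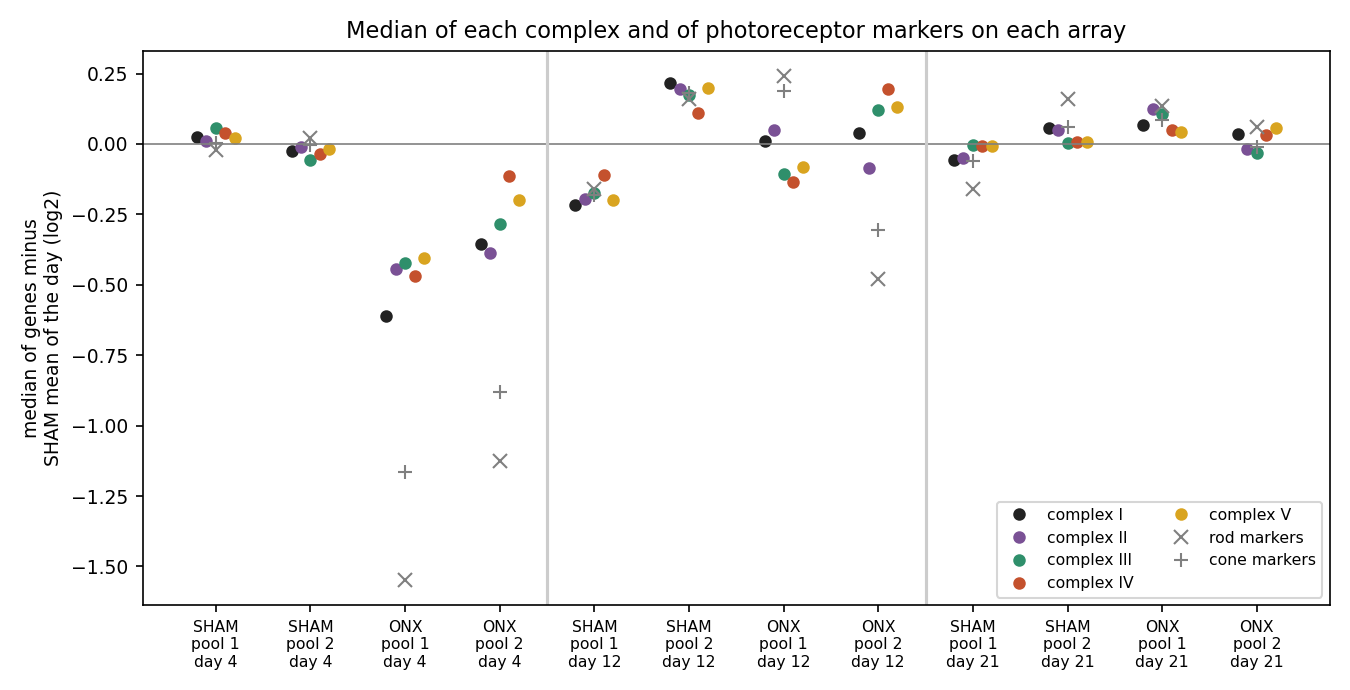
Median over genes of each complex on each of the 12 arrays, as the difference from the SHAM mean of the same day (log2, y axis), with rod and cone marker lists in grey. As deposited, every complex lies below zero on both ONX arrays of day 4 (complex I at -0.61 and -0.36), a position that moves up with arrays scaled to the hybridisation controls; at day 12 the complexes lie below zero on SHAM pool 1 and above it on SHAM pool 2.

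Over the 3 days together, the average ONX minus SHAM difference passed for no member, with a smallest adjusted p of 0.288. At an unadjusted p under 0.05 there were 4 (ndufs1, ndufa3, cox4i2 and ndufaf5). This was 4.44% of the member probe sets, below the 14.9% of all probe sets. Over all probe sets 0.0% passed. Fits without the pool 1 arrays of day 12, or of days 12 and 21, leave groups with 1 array. Their counts for the average are therefore not given. The F-test of whether the ONX effect differed between days also passed for no member and for 0.0% of all probe sets. It uses the day 4 difference in both of its contrasts, so overlap with the day 4 calls is no separate support. There 7 members (7.78%, against 14.1% of all probe sets) had an unadjusted p under 0.05, and they were the 7 genes called at day 4. This count was 8 without the pool 1 arrays of day 12 and 0 without those of days 12 and 21, where all probe sets had 159 in place of 1308. The fit without those of both days takes its spread from the day 4 arrays alone, so its counts are no check of the labels. In ndufs1 the difference moved up by 0.95 ± 0.31 from day 4 to day 12 and by 1.11 ± 0.31 from day 4 to day 21. In ndufs7 these steps were 0.90 ± 0.33 and 1.12 ± 0.33. The steps to day 12 rest on labels in doubt: in both genes the day 12 arrays with high gap43 were the lowest of that day. The adjusted p for these 7 was 0.265 to 0.315, so that a change of the effect over the days was not shown by the test.

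In the SHAM eyes the F-test between days passed for no member and for 0.0% of all probe sets. A single member, atp5mea, had an unadjusted p under 0.05 (0.0491), with SHAM means of 11.92, 11.23 and 11.94 at days 4, 12 and 21. Its ONX arrays were low at day 12 as well, at 11.16 and 11.07. Without the pool 1 arrays of day 12 there was again 1 such member, and without those of days 12 and 21 there were 0, with none called in either fit.

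**Figure D4:**
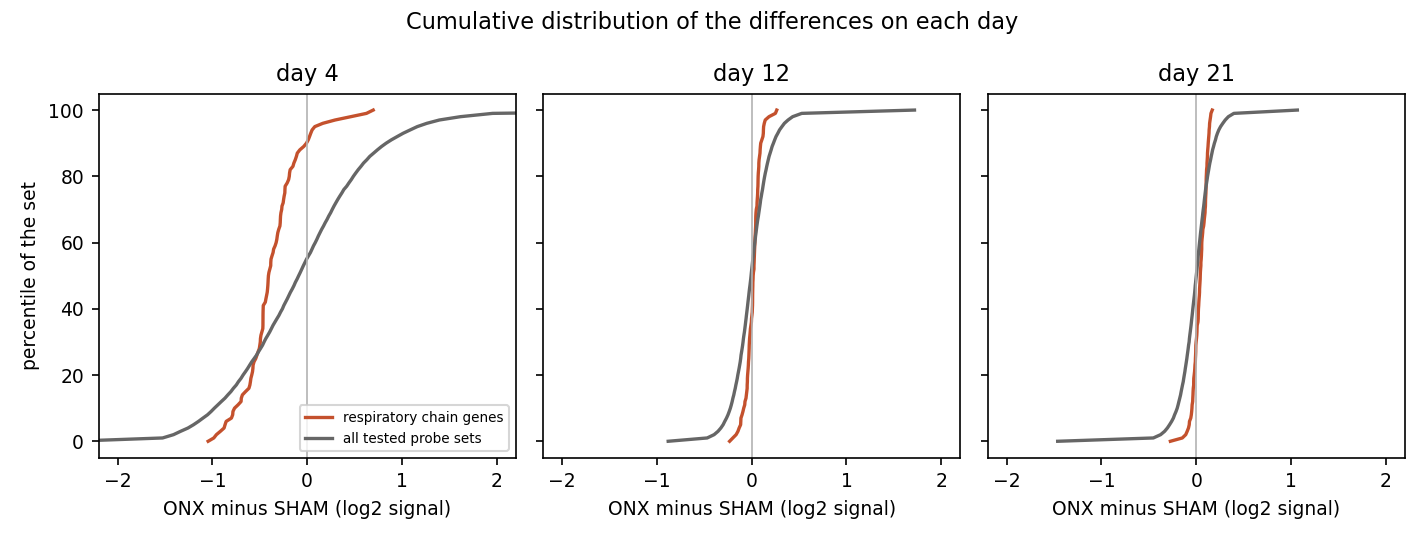
Percentile within the set (y axis) against the fitted ONX minus SHAM difference (log2 signal, x axis) at each day, for the respiratory chain genes and for all tested probe sets. At day 4 the members run left of the array over most of their range (median -0.41 against -0.09, or 0.06 against 0.38 with arrays scaled to the hybridisation controls) but have a shorter low tail; at days 12 and 21 both medians are near zero.

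Other mitochondrial and metabolic genes were read in the same fit at day 4. Electron carriers and assembly factors outside the member symbols had a median of -0.10 over 29 genes, close to the median of all probe sets. None was called, and 4 had an unadjusted p under 0.05, where 36.9% of all probe sets did. Their smallest p belonged to coq9, of ubiquinone synthesis (-0.68 ± 0.22, adjusted p = 0.0555), and atpaf2, a chaperone of ATP synthase (0.86 ± 0.28, adjusted p = 0.0604). Krebs cycle genes had a median of -0.42, with 13 of 16 below zero and 3 called lower (18.8%, against 11.7% of all probe sets). Of the called genes, ogdhb and ogdha, copies of the first subunit of the 2-oxoglutarate dehydrogenase complex, had -1.21 ± 0.26 and -1.06 ± 0.26 (log2). The third was idh2, the mitochondrial NADP-dependent isocitrate dehydrogenase, at -0.68 ± 0.19. Glycolysis genes had a median of -0.60, with 22 of 24 below zero and 7 called lower (29.2%, against 11.7% of all probe sets). Among those called lower, eno1b fell by 1.40 ± 0.29 and aldocb by 1.22 ± 0.28. The hexokinase gene hk2 was called higher, at 1.56 ± 0.33.

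The 57 tested genes of the mitochondrial ribosome had a median of 0.18 (0.27 and 0.07 by pool) with no call, and 20 of them (35.1%, against 24.1% of all probe sets) had both ONX pools above both SHAM pools. At an unadjusted p under 0.05 there were 5 of them with a higher value (8.77%), below the 13.6% of all probe sets. Import and folding genes had a median of 0.29 over 26 genes, with 19 above zero. The fit called 1 of them higher, where 5.29% of all probe sets were called higher. It was the chaperonin hspd1, at 1.16 ± 0.19 (adjusted p = 0.0176). Among 9 regulators of mitochondrial genes the median was -0.09, close to that of all probe sets, and pprc1, a coactivator of the PGC-1 family, rose by 2.29 ± 0.61 (adjusted p = 0.0319). It read 6.60 and 7.13 in SHAM and 10.32 and 7.99 in ONX, so the larger share came from pool 1, the array with high oocyte genes. Without that pool no gene of the array passed.

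Markers of photoreceptors, the cells that form the outer retina, were lower in the same ONX arrays of day 4. All 10 rod marker genes on the array (of 18 on the list) were tested, and 9 were called lower (90.0%, against 11.7% of all probe sets). All 10 had a difference below zero, with a median of -1.39. Their summed signal was 141862 and 144462 in the SHAM pools and 61274 and 72284 in the ONX pools. Of the 11 cone marker genes 10 were called lower (90.9%) and all 11 had a difference below zero (median -1.04). The cone sums were 255297 and 255136 against 115524 and 138857. Both photoreceptor lists were thus lower by more than the respiratory chain on both ONX arrays, and none of their probe sets was at 0.

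Muscle is another tissue rich in mitochondria. Its markers had sums of 56517 and 44759 in SHAM and 21935 and 64635 in ONX at day 4, so that the ONX pools lay on opposite sides of SHAM. Of 15 tested muscle genes 4 were called lower, and 9 had a difference below zero. Lens markers had a median of -0.99 (3 of 5 called lower, all 5 below zero). Red blood cell markers had -1.16 (2 of 7 called lower, all 7 below zero), and microglia markers 1.36 (3 of 13 called higher, 11 above zero). The called counts of these lists, muscle included, stand against 11.7% of all tested probe sets called lower and 5.29% called higher at day 4. At day 12 the array labelled ONX pool 2 lay below the SHAM mean by -0.48 in rod and -0.31 in cone markers, where the respiratory chain median was 0.09 and the muscle sum was the highest of the 12 arrays at 107512. Against SHAM pool 2 alone these medians were -0.65 in rod markers, -0.51 in cone markers and -0.09 in the respiratory chain. The part of any of these cell types in the respiratory chain values was not tested.

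**Figure D5:**
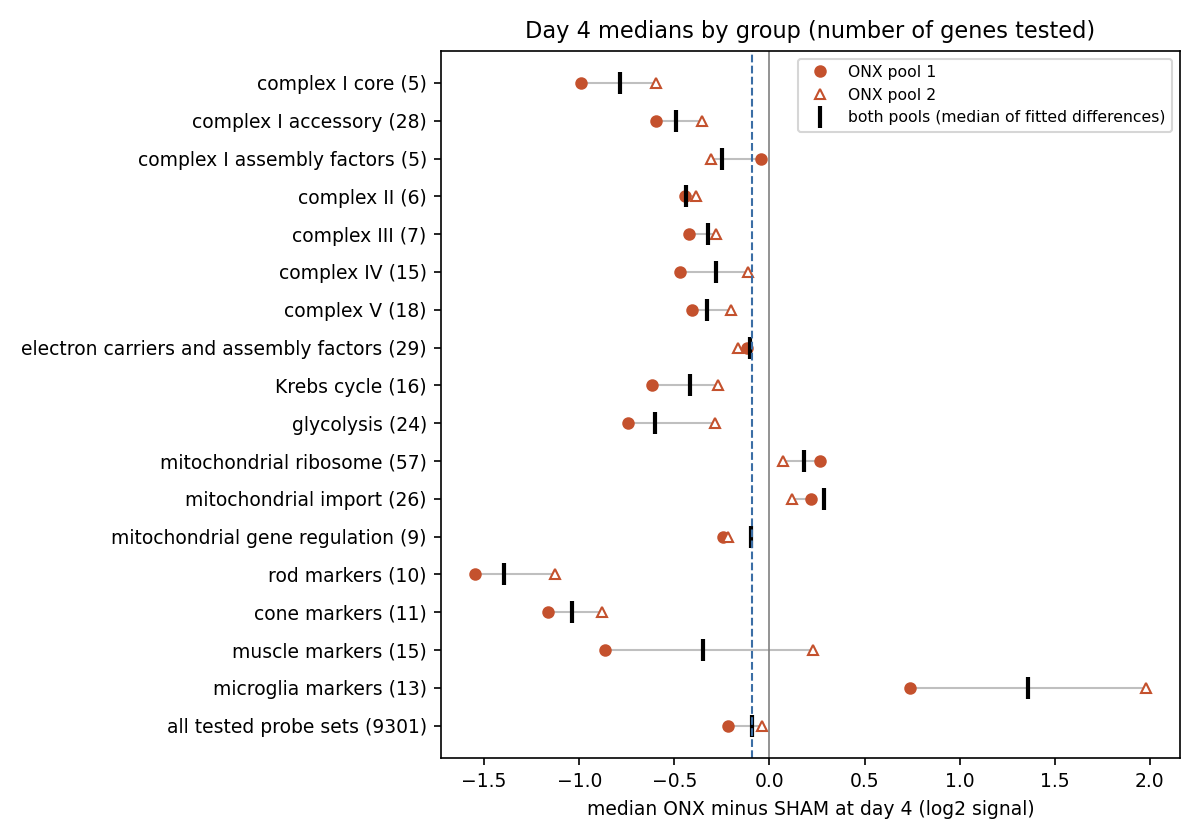
Median day 4 difference (log2 signal, x axis) of each group of genes on the y axis, with the number tested in brackets; circles and triangles are ONX pools 1 and 2 against the SHAM mean, black ticks the median fitted difference and the dashed line that of all tested probe sets (-0.09). As deposited, complexes II to V lie between -0.44 and -0.28. Complex I is drawn as core (-0.79), accessory (-0.49) and assembly factor (-0.25) genes. Krebs cycle genes lie at -0.42, rod markers at -1.39 and mitochondrial ribosome genes at 0.18. Scaled to the hybridisation controls all groups move up together, the median of all probe sets to 0.38.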

How the data were processed

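Total RNA from pooled eyes was labelled with biotin and hybridised to the Affymetrix zebrafish array, per the labels' protocols. The deposited intensity values are 1 linear signal per probe set and array, and the submitters' processing notes name MAS5; its settings are not given in the sources used here. The table held 15617 probe sets. Of 15502 that are no controls, 10795 had 1 gene symbol in the platform annotation, 135 several and 4572 none, and RefSeq held 10711 of the first kind by gene ID, all 86 member genes among them. Another 2 probe sets that match the symbols carry several and were set aside.

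Signals were used as deposited, as log2(signal + 16). Differences are therefore on that scale and understate the change of dim genes. The 60% of probe sets with the highest mean over all arrays were tested (9301), which kept 90 member probe sets of 84 genes; the other 5 had means of 4.81 to 6.99, and ndufaf8 and sdhaf3 had no tested probe set. A gene with several stands by its brightest in medians. One limma fit (version 3.58.1, R 4.3.3) gave each of the 6 groups its own mean with moderated, trended variances on 6 residual degrees of freedom. Adjustment was by Benjamini-Hochberg over all tested probe sets. With 2 pools per group p-values measure the spread between pools only. The fit was tested on simulated data.

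The labels do not say whether pools of one number came from the same fish, and the main fit used no block. Deviations of pools of one number had r = 0.12, -0.12 and -0.03 at days 4, 12 and 21. These values cannot decide the pairing, since the pool 1 labels of days 12 and 21 are in doubt and ONX day 4 pool 1 stood apart. With the block no member was called at day 4. The members and gene lists were chosen with earlier results of these data known. Named members are those called, those with the smallest p where a complex has none, the largest later differences, the brightest and dimmest, paralogs, inhibitors and genes with several probe sets. Alternatives covered offset, filter, scaling, variance model, array weights, replicate block, single-day fits, threshold and each array left out. Leaving out the pool 1 arrays of days 12 and 21 was added after the data were seen. With those of both days left out, all residual degrees of freedom come from the day 4 arrays.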

Additional observations from a re-analysis of the deposited data

Results flagged for a closer look

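For 17 members both ONX pools lay below both SHAM pools at day 4 and above them at day 21. The share of all tested probe sets with this order on both days was not counted, so the 17 have no background to be set against. By single days, 77.4% of genes lay below at day 4 (36.1% of all probe sets) and 26.2% above at day 21 (12.1%). The differences at day 4 and day 21 were -0.95 and 0.078 for cox4i2, -0.70 and 0.13 for ndufb2, -0.61 and 0.10 for uqcrq, -0.47 and 0.086 for cox7a2a, and -0.46 and 0.031 for cox8a. They were -0.31 and 0.10 for cox7c, -0.29 and 0.14 for uqcrc1, -0.23 and 0.15 for ndufa8, and -0.18 and 0.14 for atp5f1e. The pairs were -0.60 and 0.12 for ndufs4, -0.58 and 0.13 for ndufa2, -0.54 and 0.12 for ndufa1, -0.53 and 0.13 for ndufb4, -0.47 and 0.12 for atp5pd, -0.42 and 0.099 for atp5l, -0.41 and 0.092 for ndufa13, and -0.20 and 0.093 for ndufc2. One of the 2 probe sets of ndufaf1 had -0.38 at day 4 and 0.12 at day 12, again with no overlap on either day. The order of the arrays picked these 18 probe sets among the 90 tested; the limma F-test of a difference between days passed for none of them (adjusted p 0.288 to 0.857), and the opposite sign by itself was not tested. The day 12 and day 21 values rest on arrays labelled pool 1 whose gap43 levels go against the labels or overlap.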

How the results depend on the processing

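The 7 members called lower at day 4 became 0 with array weights, 0 with only the day 4 arrays, 0 with the replicate block (26 at an unadjusted p under 0.05) and 0 with scaling to the poly-A controls, 1 with scaling to the hybridisation controls, 11 with the upper 40% of probe sets, 29 at a threshold of 0.1 and 0 to 39 with 1 array left out; without the pool 1 arrays of day 12 there were 11, and without those of days 12 and 21 there were 0. Members called higher numbered 1 with the hybridisation controls (ndufaf2), 1 at the threshold of 0.1 and 0 to 2 with 1 array left out. All probe sets called changed from 1582 to 0 with array weights, block or poly-A scaling. They changed to 10 with the day 4 arrays alone and to 439 lower and 1990 higher with the hybridisation controls. With the upper 40% of probe sets, 12.9% of the members were called lower, below the 17.2% of all probe sets in that fit. The share of all probe sets at the threshold of 0.1 is not given, so the 29 members there have no background. With 1 array left out, the average over days called 0 to 2 members and the test between days 0 to 5. Medians with the hybridisation and poly-A controls were -0.017 and -0.12 in complex I, 0.032 and -0.075 in II, 0.15 and 0.041 in III, 0.19 and 0.083 in IV and 0.14 and 0.037 in V. With 1 array left out they ranged from -0.61 to -0.36 in I, -0.46 to -0.39 in II, -0.42 to -0.27 in III, -0.47 to -0.12 in IV and -0.41 to -0.20 in V. The cause was not tested. The counts at days 12 and 21 and in SHAM were 0 under every alternative run. Over 28 alternatives ndufs1 was called in 20, cox4i2, ndufs7 and ndufa3 in 19 each, uqcrb in 17, and ndufa12 and ndufb2 in 14 each, always lower. The 5 dimmest member probe sets were not tested.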
